A study of Flechtneria rotunda with 10 samples.

Results

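In the desert green alga Flechtneria rotunda, 33 of 17148 assembled genes met a rule for genes raised from early desiccation onward, and 30 of them lay above both hydrated libraries in every library of early and late drying, full dryness and rewetting. They were chosen by their measured values, with a rule on the normalised expression table that the authors deposited. The lowest of the 8 values at early desiccation, late desiccation, dry and rehydrated had to be at least 2 times the higher hydrated value, and the mean at early desiccation at least 5. The dry mean had to stay under 3 times the early mean, and the highest stage mean under 1.5 times the second highest. The rise above the hydrated stage, and the absence of one dominating stage, are therefore what the rule asked for and are given below as a description. Calls against hydrated are printed, but nothing is read from them. The rule also let in genes at 0 in both hydrated libraries whatever their lowest later value, since 0 is at least 2 times 0.

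RNA was sequenced from strain SEV3VF49, cultured for 6 weeks and spotted as drops of 40 µL on cover glass, with 2 libraries for each of 5 stages. Hydrated drops were collected straight after spotting, early desiccation drops at 2.5 h with 25% of their volume lost, and late desiccation drops at 7.5 h with 60% lost. Dry drops were taken at about 24 h, after a further 11 h in the chamber once flat, and rehydrated drops 1 h after wetting. All stages share the strain and the medium, and the labels name no genotype or added agent that sets them apart. No label states that paired libraries of a stage were grown separately, so each p-value reflects only how far such libraries differ, possibly for technical reasons.

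Library totals over the table ran from 1696655 to 5409197 counts. The late desiccation libraries stood apart in how many genes had any reads, 16734 and 16979, where the remaining 8 libraries had 10781 to 13787. They also had the largest totals, at 3561533 and 5409197 counts, and the part of depth in this difference was not tested. The files do not pair the assembly identifiers with gene names, functions or positions, and the labelled organism could not be checked against marker genes for the same reason. Members are therefore numbered 1 to 33 by their mean deposited value over the 8 later libraries, and 4 identifiers are given. Fewer cells and less RNA per cell cannot be told apart in such bulk samples, and RNA per cell was not measured.

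Algae from desert soil crusts survive the loss of nearly all water from the cell and resume growth after rain. In drying plants and algae, protection is known to involve sugars and other small solutes that stand in for water, late embryogenesis abundant proteins, heat-shock proteins that keep other proteins folded, and enzymes that remove reactive oxygen. Transcripts for such functions can be made as drying begins, or kept at a standing level before it. This is background: which functions the 33 genes have is not known from these data.

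The conditions of the rule narrowed the table quickly. The first was met by 2653 genes, of which 2513 were at 0 in both hydrated libraries and in at least 1 later library. An early mean of at least 5 left 87 genes, the limit on the dry mean left 48, and the limit on the highest stage mean left 33. Just inside the first condition, the lowest later value was 2.09 times the higher hydrated value, and just outside it 1.99 times. The early mean was 5.52 just inside and 4.97 just outside. The dry to early ratio was 2.94 just inside and 3.19 just outside, and the ratio of the highest to the second highest stage mean was 1.48 and 1.69. The first condition alone kept out 4181 genes that met the other conditions, the early minimum 210, the dry limit 25 and the limit on the highest mean 15. Of the 33 members, 29 had a value above 0 in a hydrated library, and 25 had values above 0 in all 10 libraries. Among the 4 members at 0 in both hydrated libraries, 3 also had a later library at 0.

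**Figure D1:**
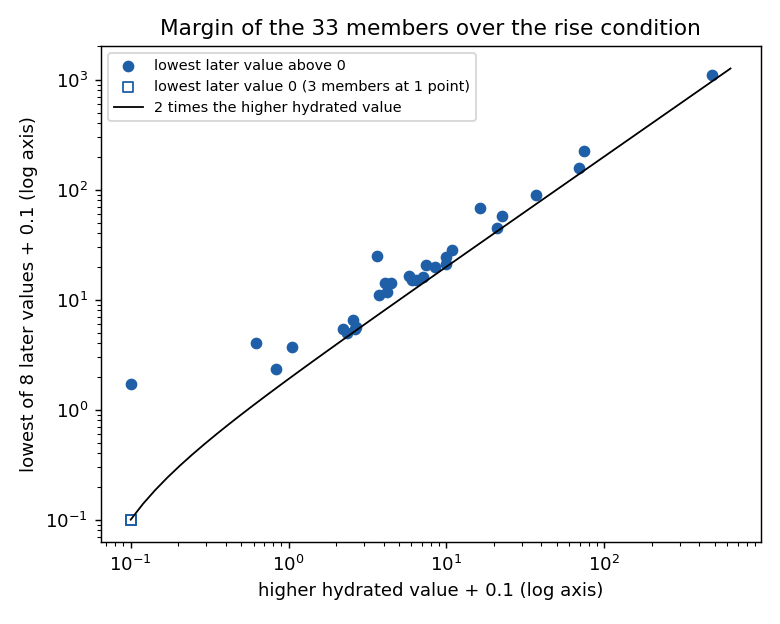
The lowest of the 8 later values (vertical, log axis) against the higher of the 2 hydrated values (horizontal, log axis) for each of the 33 members, both with 0.1 added, with the line at 2 times the hydrated value. Most members lie close above the line, and the open square holds the 3 members at 0 both in hydrated and in a later library.

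Across the members, the median stage mean of the deposited value was 3.94 in hydrated, 16.6 at early desiccation, 23.0 at late desiccation, 33.8 in dry and 32.6 in rehydrated drops. The upper quartile of the stage means was 9.31, 32.8, 47.1, 55.4 and 49.2 in the same order of stages. The rule fixes much of this course, by its minimum rise over hydrated and its limits on the later means. Among the 29 members above 0 in hydrated, the stage mean over the hydrated mean had a median of 3.43 at early desiccation (range 2.37 to 32.6), 4.76 at late desiccation (2.34 to 89.4), 6.73 in dry (2.16 to 68.9) and 5.91 in rehydrated drops (2.45 to 41.8). On the deposited values, the highest stage mean fell in dry drops for 13 members, in rehydrated drops for 10, at late desiccation for 7 and at early desiccation for 3. The lowest of the 4 later stage means fell at early desiccation for 19 members, at late desiccation for 6, and in dry and in rehydrated drops for 4 each. This order of the later stages depends on the scale. With libraries scaled by their totals alone, the median factor over hydrated was 6.28 at late desiccation, 4.14 in dry and 5.06 in rehydrated drops.

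**Figure D2:**
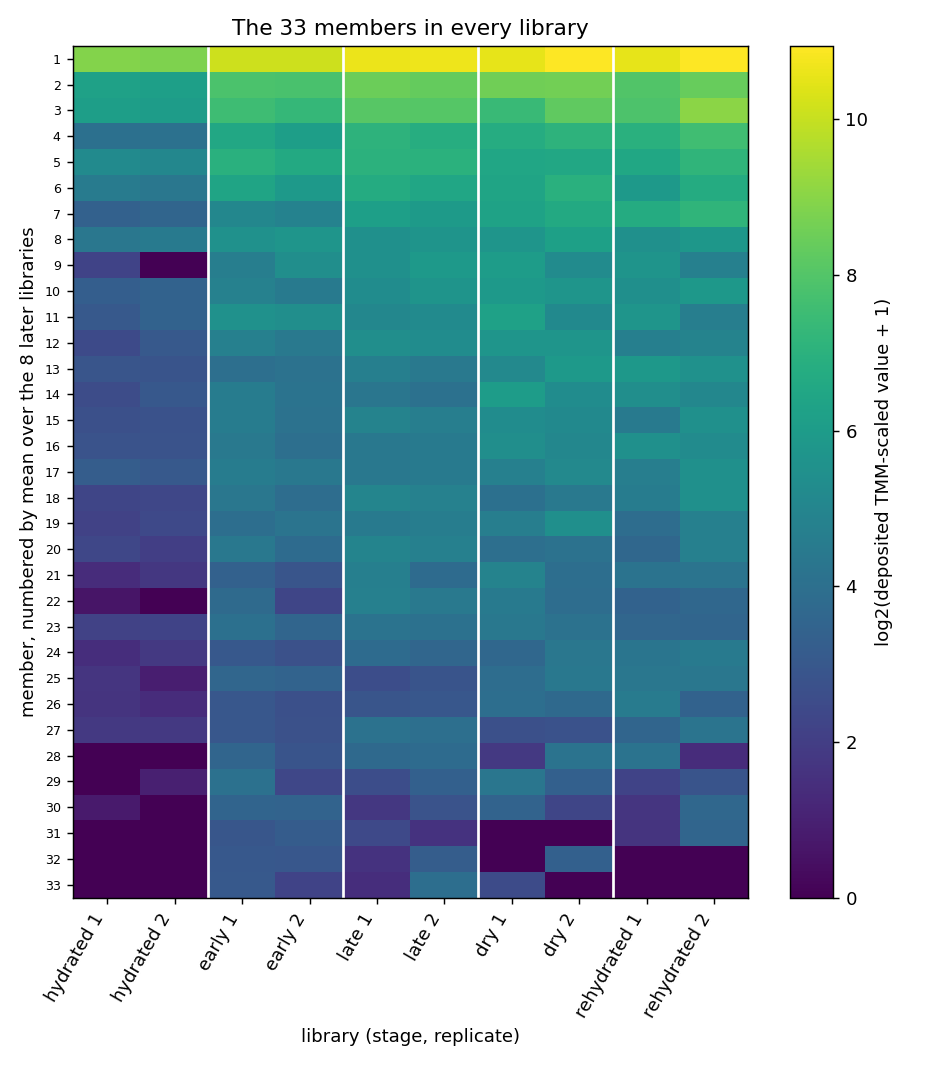
Deposited values of the 33 members (rows, numbered by mean later value) in the 10 libraries (columns, in the order of sampling), coloured by log2(value + 1). The 2 hydrated columns are darkest for nearly every member, and members 31 to 33 return to 0 in 1 or more dry or rehydrated libraries.

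The most abundant member, TRINITY_DN148330_c1_g1 (member 1), carried 62.0% to 72.5% of all member counts in each library. Its deposited value was 481 and 454 in hydrated, 1107 and 1106 at early desiccation, 1591 and 1606 at late desiccation, 1498 and 1967 in dry, and 1466 and 1937 in rehydrated drops. On these values, the hydrated libraries lay below all others, and early desiccation below the 6 libraries that followed it. The dry pair and the rehydrated pair each straddled the late level on the same values. With libraries scaled by their totals alone (CPM), the hydrated libraries, at 1844 and 1954, again lay below all others. Both dry libraries, at 3847 and 5739, then lay below both late ones, at 8426 and 8961. Both rehydrated libraries, at 4201 and 7593, also lay below the late ones. Dry replicate 1 and rehydrated replicate 1 lay even below both early libraries, at 5294 and 6425. In edgeR with TMM scaling, the log2 fold change of member 1 against hydrated was 1.19 (SE 0.29) at early and 1.76 (SE 0.30) at late desiccation. It was 2.13 (SE 0.30) in dry and 1.84 (SE 0.30) in rehydrated drops.

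TRINITY_DN69770_c3_g2 (member 2) followed a similar course up to the dry stage. Its deposited value was 74.8 and 71.0 in hydrated, 232 and 224 at early desiccation, 354 and 322 at late desiccation, 380 and 393 in dry, and 249 and 333 in rehydrated drops. On these values, both dry libraries lay above both late ones, and both rehydrated libraries below both dry ones. The step from dry to rehydrated, a log2 fold change of -0.67 (SE 0.24), did not pass the threshold in edgeR (adjusted p = 0.113). With libraries scaled by their totals alone, both dry libraries lay below both late ones instead, and the rehydrated pair straddled the dry pair.

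Members 3 and 4 show how far the 2 rehydrated libraries could part. Member 3 stood at 68.8 and 64.4 in hydrated, 187 and 158 at early desiccation, 272 and 267 at late desiccation, 171 and 309 in dry, and 235 and 524 in rehydrated drops. Member 4 stood at 15.5 and 16.2 in hydrated, 93.4 and 68.4 at early desiccation, 132 and 112 at late desiccation, 107 and 132 in dry, and 121 and 190 in rehydrated drops. On these values, both lay above hydrated in every later library, while their dry and rehydrated pairs overlapped the late level. By CPM on library totals, the dry libraries of member 3, at 301 and 618, lay below its late ones, at 984 and 1017. Those of member 4, at 144 and 213, lay below its late ones, at 365 and 335. The rehydrated pairs of both still straddled the late pairs on that scale.

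Over the 30 members above 0 in all later libraries, the larger of 2 replicate values exceeded the smaller by a median factor of 1.12 in hydrated (25 members above 0 in both), 1.28 at early desiccation, 1.14 at late desiccation, 1.37 in dry and 1.55 in rehydrated drops. Rehydrated replicate 2 was the library with the smallest total, and its members stood at a median of 1.31 times their value in rehydrated replicate 1 (range 0.0928 to 5.24). The spread between replicates in the dry and rehydrated stages was thus as large as many of the differences among the later stages.

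**Figure D3:**
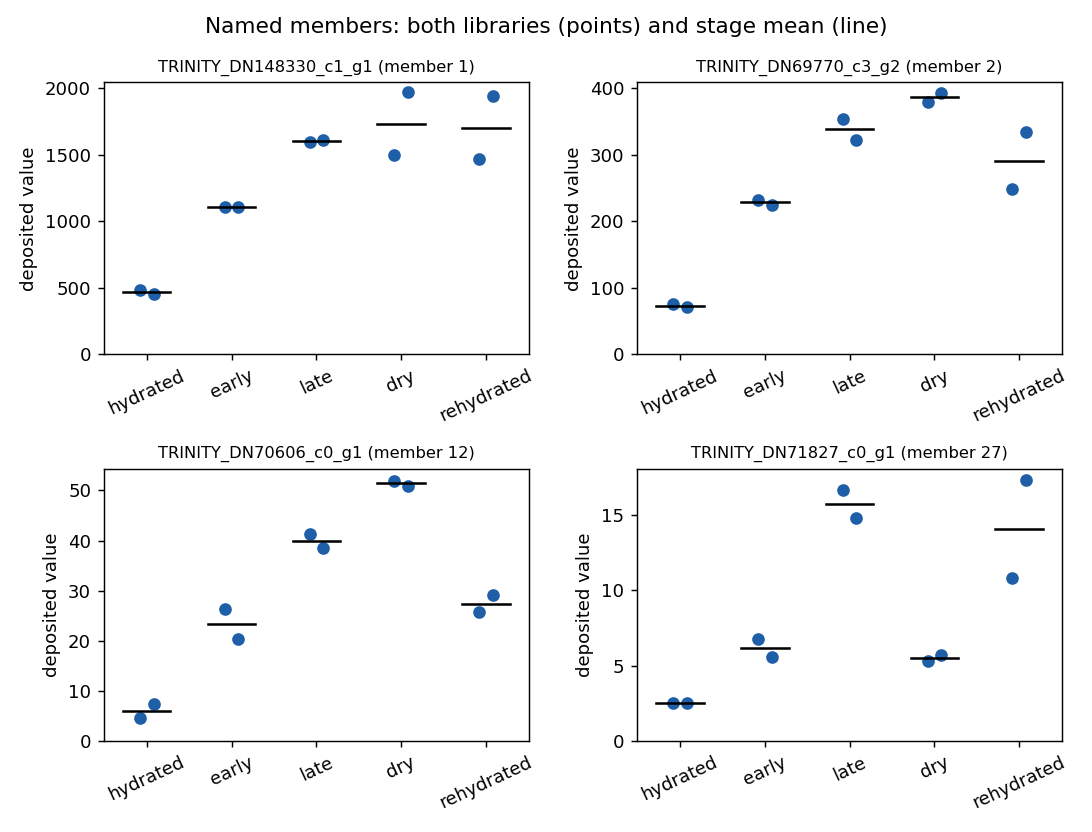
Deposited TMM-scaled value (vertical, from 0) of the 4 members given by identifier, at each stage in the order of sampling, with both libraries as points and the stage mean as a line. The stage means of members 1 and 2 climb from hydrated to dry, though dry replicate 1 of member 1 lies below both its late libraries. Member 12 is lower in both rehydrated than in both dry libraries, and member 27 has its late and rehydrated libraries above its dry ones.

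Against hydrated, the contrast that the rule used, 30 of the 33 members had enough counts to be tested. A gene is called here when its edgeR quasi-likelihood test, adjusted over all 10467 tested genes by Benjamini-Hochberg, gave a p below 0.05. At early desiccation 28 of the 30 members were called higher, beside 5.05% of all tested genes. At late desiccation 29 were called higher, beside 11.5% of tested genes, in dry drops 29, beside 22.7%, and in rehydrated drops 29, beside 22.0%. Since the rule chose the members on these contrasts, nothing is read from those counts. The median log2 fold change of the tested members was 1.73 at early desiccation (quartiles 1.43 to 2.24), 2.25 at late desiccation (1.82 to 2.85), 2.84 in dry (2.41 to 3.36) and 2.57 in rehydrated drops (2.11 to 3.14). Over all tested genes these medians were 0.00, 0.04, -0.28 and -0.09. With members at 0 counts in a stage held at a floor of 3 counts over that stage, the members' medians were 1.73, 2.203, 2.87 (29 members) and 2.47.

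Of the 30 tested members, 8 were called at early desiccation without hydrated replicate 1, 13 without hydrated replicate 2 and 11 without early desiccation replicate 1. Their median log2 fold change was 1.73, 1.81 and 1.53 in these fits, and calls of higher genes over all tested genes numbered 115, 156 and 138, against 529 with all libraries. The members not called at early desiccation were 13 (log2 fold change 1.26, SE 0.38, edgeR adjusted p = 0.0524) and 26 (1.64, SE 0.50, edgeR adjusted p = 0.0540).

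The rule set no threshold on single steps among the 4 later stages, but it bounds them. Its minimum of 2 times hydrated in every later library limits how far a member above 0 in hydrated could fall, and its limits on the dry mean and on the highest stage mean limit how far one could rise. Few calls of lower members beside the share over all genes are therefore not read as a result. From early to late desiccation 4 of 30 members were called higher (13.3%), beside 6.11% of all tested genes. None was called lower, beside 5.85% of tested genes. At an unadjusted p below 0.05, 11 members were higher and 1 lower, and DESeq2 called 4 higher and 0 lower of the 27 members to which it gave an adjusted p. The median log2 fold change of the members was 0.53 (quartiles -0.01 to 0.85), against 0.01 over all tested genes, with 21 members above 0 and 9 below. The 4 called members were 7, 10, 24 and 27. The count was 2 without either hydrated library or without early replicate 1, and 0 without early replicate 2 or without late replicate 1. The members' median log2 fold change stayed between 0.38 and 0.65 with 1 library left out. Over all tested genes, calls of higher genes numbered 174 without early replicate 2 and 203 without late replicate 1, against 640 with all libraries.

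The TMM scale below is that of edgeR, computed from the counts, and it differs from the scaling of the deposited values. Member 7 was called higher in both drying steps on the TMM scale, and in neither on library totals. From late desiccation to dry its deposited stage means had a ratio of 1.32, a smaller rise than the edgeR log2 fold change given below. Its deposited value was 9.57 and 10.7 in hydrated, 32.0 and 28.1 at early desiccation, 70.7 and 61.8 at late desiccation, 76.9 and 98.5 in dry, and 105 and 143 in rehydrated drops. On these values, no pair of libraries of one stage overlapped that of the stage before it. The log2 fold change was 1.16 (SE 0.25, edgeR adjusted p = 0.0121) from early to late desiccation and 0.72 (SE 0.25, edgeR adjusted p = 0.0358) from late desiccation to dry, and 0.22 (SE 0.25, edgeR adjusted p = 0.612) from dry to rehydrated. On library totals alone the first of these was 1.18 (SE 0.33, edgeR adjusted p = 0.0527), and the second turned to -0.52 (SE 0.33, edgeR adjusted p = 0.176). By CPM on library totals, both dry libraries of member 7, at 176 and 257, lay below both late ones, at 319 and 295. Member 7, like member 3, shares its assembly cluster with another gene of the table. The estimated counts of both were not whole numbers in 90% of the libraries. Reads may be split between similar sequences, so the values of both members are uncertain.

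From late desiccation to dry, 9 of 30 members were called higher (30%), beside 22.4% of all tested genes, and 1 was called lower (3.33%), beside 20.3%. The median log2 fold change was 0.55 (quartiles 0.13 to 0.94), against -0.29 over all tested genes. With limma on log2 of the deposited TMM-scaled values plus 1, the median over all 33 members was 0.19, with 21 members above 0 and 12 below. The direction turned when libraries were scaled by their totals alone. On that scale edgeR called 0 of 30 members higher and 9 lower (0 and 13 at an unadjusted p below 0.05). Over all 10467 tested genes it called 814 higher and 5989 lower. The members' median was -0.72, against -1.53 over all tested genes. Whether the members were higher or lower in dry thus depended on the scale. Since genes that fell far in dry could not meet the rule, nothing is read from the distance to the median of all genes. The TMM factors that part the scales ran from 0.529 in dry replicate 1 to 1.54 in early desiccation replicate 2. On the TMM scale the count of 10 called members was 5 without either late library and 6 without dry replicate 2.

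The summed signal of the 33 members also differed between library totals and the deposited values. Their share of all library counts was 0.263% ± 0.0125 in hydrated, 0.885% ± 0.0815 at early desiccation, 1.31% ± 0.0406 at late desiccation, 0.715% ± 0.188 in dry and 0.930% ± 0.416 in rehydrated drops (SD, n = 2 each). Per library the dry shares were 0.582% (95% Wilson interval 0.572% to 0.593%) and 0.849% (0.837% to 0.861%), and the rehydrated shares 0.636% (0.627% to 0.646%) and 1.22% (1.21% to 1.24%), intervals that cover counting error only. The sum of the deposited values was 792 ± 24.9, 2222 ± 125, 3166 ± 31.5, 3453 ± 473 and 3455 ± 771 in the same order of stages (SD, n = 2 each). By share of counts, late desiccation was the highest stage and both dry libraries lay below it, with dry replicate 2 within the early pair (0.828% and 0.943%) and dry replicate 1 below that pair. By deposited value, the dry and rehydrated pairs lay around the late level. Without member 1 the shares were 0.0734%, 0.299%, 0.442%, 0.236% and 0.341%, so the shape did not come from that gene alone. On either scale every later library lay above both hydrated ones. On library totals alone, all 29 members with counts in hydrated kept a stage mean above hydrated, by a median factor of 4.36 at early desiccation, 6.28 at late desiccation, 4.14 in dry and 5.06 in rehydrated drops.

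**Figure D4:**
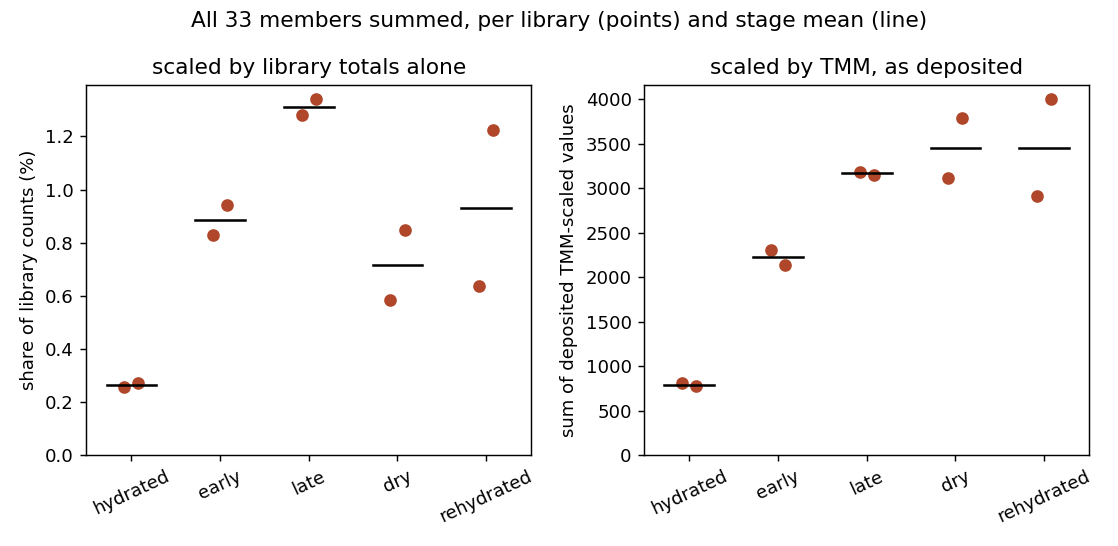
All 33 members summed in each library (points) with the stage mean (line), as a share of library counts in percent (left) and as the sum of deposited TMM-scaled values (right), both axes from 0. The dry pair lies below the late pair by share of counts, at 0.582% and 0.849%, but around it by deposited value.

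Members called higher in dry than at late desiccation were of more than one shape. Member 25 stood at 2.24 and 0.916 in hydrated, 11.2 and 10.1 at early desiccation, 4.92 and 6.26 at late desiccation, 14.2 and 19.95 in dry, and 19.0 and 19.0 in rehydrated drops. Both late libraries lay below both early and both dry ones. Its log2 fold change was -0.92 (SE 0.34, edgeR adjusted p = 0.104) from early to late desiccation and 1.90 (SE 0.36, edgeR adjusted p = 0.00123) from late desiccation to dry. On library totals alone the second step was not called.

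Members 13 and 14 belong to one assembly cluster and were both called higher in dry than at late desiccation. Member 13 stood at 6.35 and 6.21 in hydrated, 15.1 and 16.5 at early desiccation, 25.6 and 20.4 at late desiccation, 34.8 and 58.2 in dry, and 55.5 and 45.1 in rehydrated drops. Member 14 stood at 4.78 and 6.99 in hydrated, 23.1 and 17.2 at early desiccation, 18.6 and 16.1 at late desiccation, 64.8 and 38.6 in dry, and 41.2 and 32.9 in rehydrated drops. Their dry replicates ran in opposite order, with member 14 higher in dry replicate 1 and member 13 in dry replicate 2. The log2 fold changes of dry against late were 1.37 (SE 0.30, edgeR adjusted p = 0.00318) and 1.87 (SE 0.31, edgeR adjusted p = 0.000578). On library totals alone they were 0.14 (SE 0.37) and 0.59 (SE 0.32), and neither was called. Reads may be split between such similar sequences, so both values are uncertain.

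The single member called lower in dry than at late desiccation was TRINITY_DN71827_c0_g1 (member 27). Its deposited value was 2.55 and 2.54 in hydrated, 6.76 and 5.60 at early desiccation, 16.7 and 14.8 at late desiccation, 5.32 and 5.70 in dry, and 10.8 and 17.3 in rehydrated drops. On these values, dry fell back to the early level while both rehydrated libraries lay above both dry ones. The log2 fold change was 1.42 (SE 0.26, edgeR adjusted p = 0.00504) from early to late desiccation and -1.28 (SE 0.28, edgeR adjusted p = 0.00324) from late desiccation to dry. From dry to rehydrated it was 1.08 (SE 0.29) and did not pass the threshold (edgeR adjusted p = 0.0512). On library totals alone all 3 steps were called, with log2 fold changes of 1.44, -2.52 and 1.69 (edgeR adjusted p = 0.0320, 0.000303 and 0.0275). By CPM on library totals, both dry libraries, at 13.8 and 16.7, lay below both early ones, at 32.6 and 32.0. On that scale dry against hydrated had a log2 fold change of 0.57 (SE 0.41, edgeR adjusted p = 0.261) and was not called.

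Between dry drops and drops 1 h after wetting, the share of members called was near that of all tested genes. None of 30 was called higher in rehydrated than in dry drops, beside 2.73% of all tested genes, and 1 was called lower (3.33%), beside 2.39%. At an unadjusted p below 0.05, 3 members were higher and 6 lower in rehydrated drops. DESeq2 called 0 higher and 3 lower of the 24 members to which it gave an adjusted p. The median log2 fold change was -0.28 (quartiles -0.65 to 0.07), against 0.07 over all tested genes. On library totals alone the median was 0.34, against 0.60 over all tested genes. There 1 of 30 members was called higher and 0 lower, beside 770 and 20 of all 10467 tested genes. The median standard error of a member in this step was 0.31.

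The member called lower after wetting was TRINITY_DN70606_c0_g1 (member 12). Its deposited value was 4.54 and 7.30 in hydrated, 26.3 and 20.5 at early desiccation, 41.4 and 38.5 at late desiccation, 51.9 and 50.9 in dry, and 25.7 and 29.1 in rehydrated drops. On these values, each drying stage lay above the one before it, and the rehydrated libraries returned to near the early level, still above hydrated. On the TMM scale neither late against early desiccation (edgeR adjusted p = 0.0849) nor dry against late desiccation (edgeR adjusted p = 0.106) was called. By CPM on library totals, both dry libraries, at 154 and 174, lay below both late ones, at 265 and 258. The log2 fold change of rehydrated against dry on the TMM scale was -1.15 (SE 0.28, edgeR adjusted p = 0.0399). The adjusted p was 0.300 on library totals alone, and it was between 0.0545 and 0.177 with any 1 library left out, while the log2 fold change stayed between -1.19 and -1.07. Over all alternatives run, the adjusted p of this member ranged from 0.00125 with DESeq2 to 0.300. With 1 rehydrated library left out, 1 member other than member 12 was called, higher without rehydrated replicate 1 and lower without rehydrated replicate 2.

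**Figure D5:**
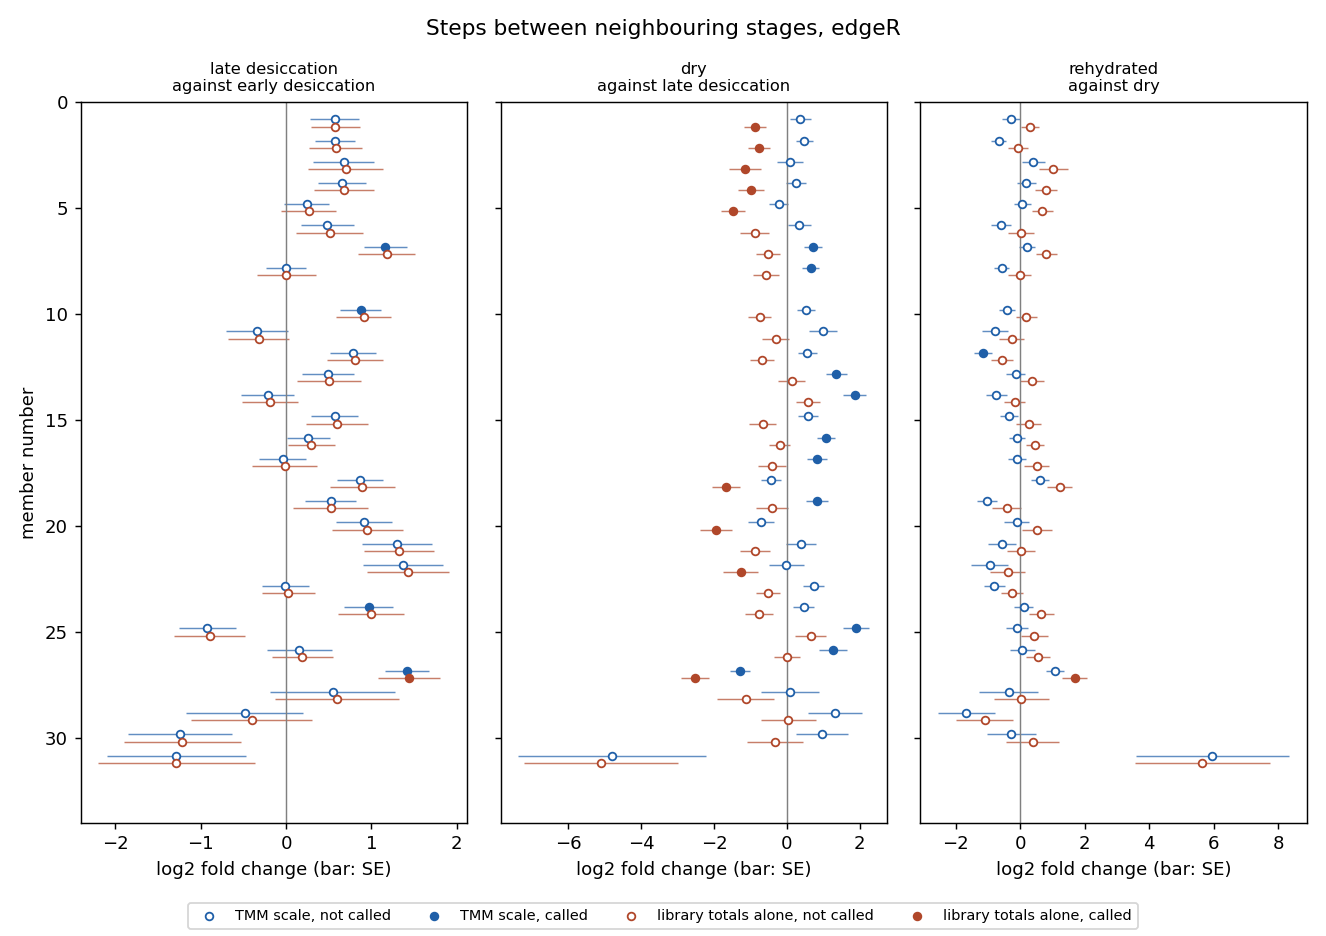
The log2 fold change (horizontal, bars show 1 SE) of each tested member (vertical, by number) between neighbouring stages, on the TMM scale (blue) and on library totals alone (red), with filled points where the edgeR adjusted p was below 0.05. In dry against late desiccation the 9 members called higher on the TMM scale lose that call on library totals. On library totals 9 members are called lower, beside 5989 of all 10467 tested genes, and member 27 is called lower on both scales.

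Of the 30 tested members, 17 were called in none of the 3 steps on the TMM scale, and 2 (members 7 and 27) were called in more than 1. How many of all tested genes were called in no step was not counted, so nothing is read from either count. Over the 30 members above 0 in all later libraries, the highest later stage mean was a median of 2.14 times the lowest (range 1.31 to 4.13). The ratio of stage means had a median of 1.45 for late over early, 1.26 for dry over late and 0.968 for rehydrated over dry, on the deposited values. The rule bounds these ratios in part.

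The members differed widely in the depth behind their values. At least 100 counts in every library were found in 5 members (1, 2, 3, 5 and 6), and at least 10 in 19. In hydrated drops, 11 members had fewer than 10 counts in each library. In the later stages, 8 members had fewer than 10 counts in at least 1 library.

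The weakest members in this sense included 9, 28, 29 and 31 to 33. Member 29 had at most 24 counts in any library. Member 9 had deposited values of 3.56 and 0 in hydrated and 24.6 to 64.9 in the later libraries. Behind them stood at most 12 counts in any library, and it did not pass the filter on low counts, so it was not tested. Its relative length was 0.027 of the median gene. Member 28 had 0 counts in both hydrated libraries, 16 and 9 at early desiccation, 25 and 44 at late desiccation, 2 and 13 in dry, and 16 and 1 in rehydrated drops. It was at least 6.94-fold higher at early desiccation than in hydrated drops, taking 3 counts over the hydrated stage as the floor. Member 31 had 8 and 10 counts at early desiccation, 7 and 6 at late desiccation, 0 in both dry libraries, and 2 and 7 in rehydrated drops. Members 32 and 33 had at most 15 counts in any library and 0 in both rehydrated libraries. Members 31 to 33 therefore meet the rule through their 0 values in hydrated drops and were not raised in all later libraries.

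Assembly cluster, which the rule did not use, and length can be set beside the whole table. By assembly, 16 of the 33 members (48.5%) share their assembly cluster, the identifier without its last number, with another gene of the table, as do 26.8% of all genes and 29.0% of tested genes. The estimated counts of those 16 members were not whole numbers in at least 1 library, and those of the 17 members alone in their cluster were whole throughout, to within 0.005. Relative length was taken from the ratio of counts to deposited values. The early minimum of the rule was set on deposited values, so length is not independent of the rule. Relative length had a median of 1.15 times the median gene among the members (quartiles 0.597 to 2.41), against quartiles of 0.605 and 1.58 over the table. The members' mean deposited value over the 10 libraries had a median of 22.8, against 3.28 over all genes, and the early minimum of the rule favours abundant genes.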

How the data were processed

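RNA sequencing covered 10 libraries of 5 stages, depleted of ribosomal RNA with kit oligos and 105 designed for the study, per the labels' protocols. Trimmomatic 0.35, Bowtie2 2.2, RSEM 1.2.28, CASAVA 1.4 and DESeq2 are named in the submitters' processing notes, in no order. One deposited table gives unscaled expected counts for each assembled gene. The other gives an expression signal scaled by TMM by the authors, as its deposited name says. The name of both tables calls their genes differentially expressed, by a choice not given in the sources used here, so percentages of tested genes do not describe the alga's whole gene set. Column names gave each sample's replicate and time.

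The members were found on the deposited signal. Their number, the rule and the comparisons were chosen with earlier results of these data known. For tests, expected counts were rounded and filtered with filterByExpr (minimum count 10, minimum total 15), which left 10467 of 17148 genes and 30 of 33 members. One quasi-likelihood model was fitted to all 10 libraries and all tested genes with TMM scaling (edgeR 4.0.16, R 4.3.3), two-sided, with Benjamini-Hochberg adjustment and a threshold of 0.05. Its TMM factors were computed from the counts, apart from the scaling of the deposited signal. The test was first tested on simulated data. The SE equals the absolute log2 fold change divided by the root of F.

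Identifiers were given for the 2 members with the highest later mean, and for 2 that fell: the smallest adjusted p in rehydrated against dry and, since 1 was called there, in dry against late desiccation. Other members are given by number, those with values in every library chosen after their values were seen. Alternatives were library totals alone, median-of-ratios size factors, no filter, limma 3.58.1 after adding 1 or 0.1 to the deposited signal and taking log2, DESeq2 1.42.0, the replicate number as a block and leaving out each library. Added after the data were seen were leaving out both late libraries, and requiring a lowest later value above 0.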

Additional observations from a re-analysis of the deposited data

How the results depend on the processing

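The number of genes that meet the rule was 30 on CPM from the counts with TMM scaling, of which 18 were among the 33, and 73 with library totals alone, of which 17 were. It was 80 with a rise of 1.5 times, 11 with 3 times, 158 with an early mean of at least 1, and 29 to 83 with 1 library left out. With a lowest later value above 0 required, added after the data were seen, it was 30. Members called from early to late desiccation numbered 1 with library totals alone and 1 with limma where the mean was at least 1, and 0 to 6 with 1 library left out. For dry against late desiccation the count was 6 in each of the limma fits (4 higher, 2 lower), and 5 to 11 with 1 library left out. For rehydrated against dry it was 2 with no filter, 3 with DESeq2, 0 with limma at a pseudocount of 1 and 0 without both late libraries, against 1 in the report, and 0 to 1 with 1 library left out. Against hydrated it was 8 to 30 for early desiccation, 23 to 29 for late desiccation, 28 to 29 for dry and 26 to 29 for rehydrated drops with 1 library left out. The cause of these differences was not tested. Scaling by library totals alone shifts all genes of the dry libraries down, and the log2 fold change of dry against late was then -0.87 for TRINITY_DN148330_c1_g1, -0.77 for TRINITY_DN69770_c3_g2 and -0.68 for TRINITY_DN70606_c0_g1. That of rehydrated against dry was 0.30 for TRINITY_DN148330_c1_g1. All 4 have the opposite sign on the TMM scale.

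With the replicate number as a block, 3 members were called in rehydrated against dry (1 higher, 2 lower), 5 in late against early desiccation and 11 in dry against late desiccation. The numbers share no stated culture or day. The correlation across genes of the replicate difference between stages ran from 0.0004 to 0.141 over 10 pairs of stages, with 1 above 0.1, so the samples were not treated as paired. Depth limits the members with few counts most: 11 had fewer than 10 counts in each hydrated library.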

Other observations

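The assembly clusters of the 33 members hold 18 other genes of the table, none of which met the rule, and 12 of the 18 passed the filter on low counts. Against hydrated drops, 3 of the 12 were called higher at early desiccation and 0 lower, 4 higher and 1 lower at late desiccation, 5 higher and 1 lower in dry drops, and 5 higher and 3 lower in rehydrated drops (edgeR quasi-likelihood test, Benjamini-Hochberg adjusted p below 0.05). Of all 10467 tested genes, 529 were called higher and 645 lower at early desiccation, and 1206 and 1402 at late desiccation. In dry drops these numbers were 2379 and 2330, and in rehydrated drops 2307 and 2116. The median log2 fold change of the 12 was 1.04 at early desiccation, 1.76 at late desiccation, 1.36 in dry and 1.65 in rehydrated drops. Over all tested genes these medians were -0.001, 0.04, -0.28 and -0.09. Reads may be split between similar sequences of one cluster, so these values are uncertain.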
